A study of Homo sapiens with 6 samples.

Results

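The polyamine genes described here were the 10 genes that encode the enzymes of polyamine synthesis and breakdown and the proteins that set the activity of the first enzyme. They are 10 of the 39771 rows of the deposited table and were found by symbol, each with 1 row. The 10 names were chosen by pathway, with the low value of SRM in the shLAMP5 libraries already known, so their differences between the groups are given as a description, and nothing is supported with them. RNA was sequenced from MOLM-13, a human acute myeloid leukaemia cell line that carries the MLL-AF9 translocation. The cells had received a lentiviral short hairpin RNA, either non-targeting (shNT, 2 libraries) or against LAMP5 (shLAMP5, 4 libraries), and all had been selected with puromycin. The labels do not name the hairpin sequence or the harvest time of a library, so the 4 shLAMP5 libraries may mix them, and all come from 1 cell line. Nothing in the labels says that libraries of a group were separate cultures. The p-values therefore weigh the group difference only against the spread among these libraries, and within a group that spread may be technical.

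Polyamines are small positively charged molecules that bind nucleic acids and are needed for growth. Ornithine decarboxylase (ODC1) makes putrescine, spermidine synthase (SRM) turns it into spermidine, and spermine synthase (SMS) turns spermidine into spermine. Both synthases use the aminopropyl donor that AMD1 makes from S-adenosylmethionine. SAT1 acetylates spermidine and spermine, PAOX oxidises the acetylated forms, and SMOX oxidises spermine directly. The antizymes OAZ1 and OAZ2 bind ODC1 and send it to the proteasome, and AZIN1, an inactive relative of ODC1, binds antizyme and so spares ODC1. Several of these proteins are controlled after transcription, which RNA levels do not show. ODC1 is a textbook target of the transcription factor MYC, whose preferred site is the E-box CACGTG.

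The start sites of the synthesis genes were searched for that E-box because SRM, ODC1 and AMD1 were lower in every shLAMP5 library. RefSeq windows (GRCh38.p14) of 250 bases before to 50 after a start were found for 7 of the 10 members, in 10 windows; AZIN1, PAOX and SMOX had no entry. CACGTG, which reads the same on both strands, was present in 2 of the 10 windows, 1 of SRM and 1 of ODC1. It was present in 7.26% of all 35116 windows. G and C made up 82.0% of that SRM window and 80.7% of that ODC1 window, beside a median of 58.7% over all windows. Windows of like G and C content were not counted apart, so 7.26% is not a matched background. The low values of SRM, ODC1 and AMD1 prompted the search, and some windows of AMD1 overlap. Nothing is therefore read from these shares. The stretches that hold CACGTG are printed 5′ to 3′ on the strand of the gene, with the E-box in capitals. The SRM stretch runs from 250 to 131 bases before the start (chr1:11060149-11060268, minus strand, GRCh38.p14) and overlaps no annotated gene in GENCODE release 29. The ODC1 stretch is the last 100 bases before the more downstream of its 2 listed starts (chr2:10448013-10448112, minus strand, GRCh38.p14), inside the ODC1 gene and in none of its annotated exons.
SRM: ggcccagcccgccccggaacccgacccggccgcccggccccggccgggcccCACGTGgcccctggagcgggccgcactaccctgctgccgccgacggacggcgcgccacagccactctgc
ODC1: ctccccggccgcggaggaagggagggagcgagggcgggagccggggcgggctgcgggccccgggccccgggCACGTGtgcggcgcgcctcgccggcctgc
The E-box began 199 bases before the start in SRM and 29 bases before the more downstream start in ODC1, where another copy began at base 6 after the start. The windows of AMD1, SMS, SAT1, OAZ1 and OAZ2 and the other ODC1 window held no CACGTG. A match is a description of the letters in these windows and says nothing of binding in these cells.

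Values are TPM, a unit scaled to the library total and to transcript length, so that levels can be set side by side between genes. The libraries summed to between 897026 and 912565 TPM, and the number of reads behind a value is unknown. LAMP5, the targeted gene, stood at 170 and 282 TPM in the shNT libraries and at 80.6, 65.6, 68.8 and 86.7 TPM in shLAMP5 1 to 4, lower in all 4 (exact two-sided permutation p 0.0667, the smallest that 15 splits allow). Of 9 myeloid markers 8 passed the filter described next. Of these only CSF1R was higher in all shLAMP5 libraries, beside 8.25% of all genes tested. CSF1R stood at 20.8 TPM in shNT 1 against 21.1 TPM in shLAMP5 4, and at 79.7 TPM in shLAMP5 3. The 9 markers summed to between 2506 and 6603 TPM in shNT and between 1879 and 10328 TPM in shLAMP5. Among them SPI1 lay between 205 and 466 TPM and CD33 between 61.7 and 141 TPM, while the monocyte marker CD14 did not pass 1.39 TPM. Of the 4 T cell markers CD3E, CD3G and CD2 stayed at or below 0.251 TPM and CD3D reached 8.41 TPM. B cell, erythroid and fibroblast or epithelial markers summed to at most 6.40 TPM per list in any library. One library, shLAMP5 2, stood apart in scale, with a median scaling factor of 0.839 against 0.998 to 1.06 in the other libraries.

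Across the 13072 genes that reached 1 TPM in 2 or more libraries, limma called 0 at an adjusted p of 0.05 (0%; 210 with library weights), with 686 genes lower (5.25%) and 486 higher (3.72%) at an unadjusted p under 0.05. No polyamine gene was called either, with limma adjusted p-values between 0.252 and 0.992 for the 9 members that passed the filter on low values. The 2 members under an unadjusted p of 0.05 were SRM and ODC1, both lower. Of the 9, 3 (SRM, ODC1 and AMD1) had each shLAMP5 value under the lower shNT value, beside 13.5% of all genes tested. For 1 (SMOX) each was above the higher shNT value, beside 8.25% of all genes tested. Among genes that reached 10 TPM in 2 or more libraries, as all 9 did, 17.4% were lower and 6.74% higher in this way. With 9 genes, picked with the SRM value known, nothing is read from these shares. On the log2(TPM + 1) scale, the median log2 fold change of shLAMP5 against shNT was -0.14 for the 9 members and -0.0060 for all genes tested. It was -0.048 for genes that reached 10 TPM in 2 or more libraries.

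**Figure D1:**
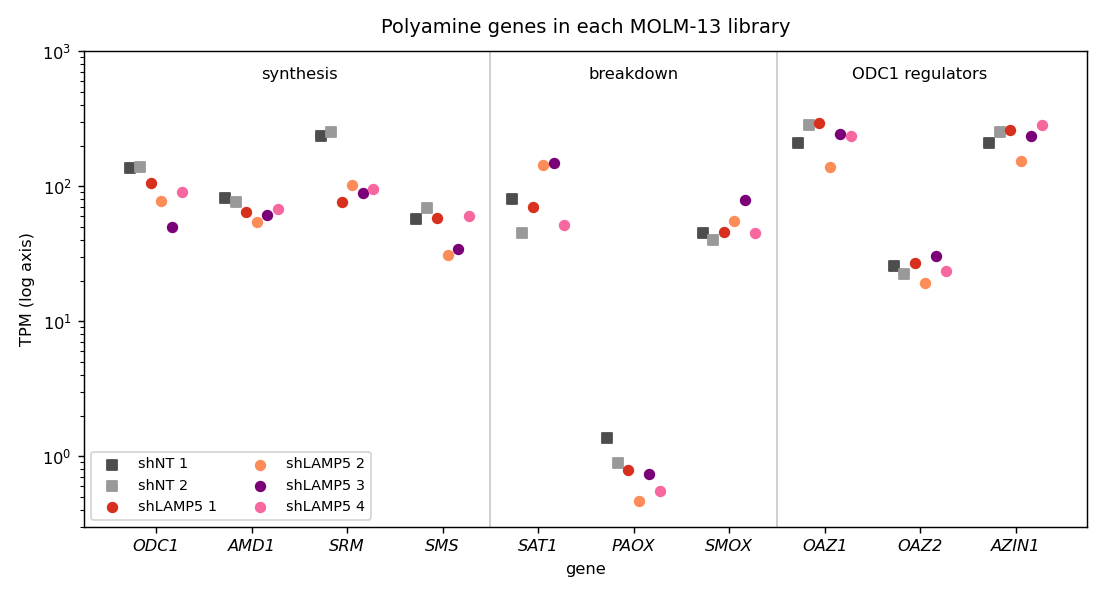
TPM (log axis) of the 10 polyamine genes, grouped by role, with 1 point per library (squares shNT, circles shLAMP5). The shLAMP5 points of SRM sit between 75.8 and 101 TPM, below both shNT points at 237 and 252 TPM, while those of SAT1 spread from 51.9 to 148 TPM around the shNT points.

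SRM, the spermidine synthase, had the largest difference of the members. It measured 237 and 252 TPM in shNT 1 and 2, and 75.8, 101, 88.9 and 95.6 TPM in shLAMP5 1 to 4. All 4 of the latter lay far below both shNT libraries. With each library scaled by its median ratio, they spread more widely, from 71.4 TPM in shLAMP5 1 to 121 TPM in shLAMP5 2. The scaled shNT values were 237 and 244 TPM. Unscaled, the shLAMP5 mean was 90.4 ± 11.0 TPM (SD, n = 4). This was 37.0% of the shNT mean of 244 ± 11.2 TPM (SD, n = 2), a 2.70-fold lower level. In log2 this was -1.43 (SE 0.19, 95% interval -1.87 to -0.996). SRM ranked 31st from the lowest fold change among the 13072 genes tested, and its unadjusted limma p, 6.80e-05, was the smallest of all of them, with an adjusted p of 0.252. It was the reason the pathway was chosen, so these ranks describe it and are no test. Over the 16 other settings of the model its fold change ran from -1.54 to -1.35. The adjusted p ran from 0.0215, with library weights, to 1.00, without shNT 2, when the lone shNT library is assumed to vary like the other group.

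ODC1, which makes putrescine at the head of the pathway, was also lower in every shLAMP5 library. It measured 137 and 140 TPM in shNT and 106, 77.6, 50.1 and 90.9 TPM in shLAMP5 1 to 4. Its shLAMP5 libraries differed among themselves by more than for SRM, from 36.3% of the shNT mean in shLAMP5 3 to 77.0% in shLAMP5 1. The mean was 81.3 ± 23.9 TPM in shLAMP5 (SD, n = 4) against 138 ± 2.11 TPM in shNT (SD, n = 2). This made a log2 fold change of -0.81 (SE 0.30, 95% interval -1.49 to -0.13, limma adjusted p 0.524).

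AMD1, which supplies the aminopropyl donor, showed a smaller difference in the same direction. Its values were 81.8 and 76.9 TPM in shNT and 64.3, 54.6, 61.6 and 67.9 TPM in shLAMP5 1 to 4, again with no overlap. In log2 the difference was -0.35 (SE 0.18, 95% interval -0.77 to 0.067, limma adjusted p 0.599).

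SMS, the spermine synthase, did not separate the groups. It measured 57.6 and 68.8 TPM in shNT and 58.1, 30.9, 34.4 and 60.4 TPM in shLAMP5 1 to 4. Only shLAMP5 2 and 3 were low, near 48.9% and 54.5% of the shNT mean, while shLAMP5 1 and 4 lay within the shNT range. With each library scaled by its median ratio, the 2 groups no longer overlapped, the closest pair being 57.4 TPM in shLAMP5 4 and 57.7 TPM in shNT 1. Unscaled, its log2 fold change was -0.51 (SE 0.32, 95% interval -1.24 to 0.22, limma adjusted p 0.663).

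The ratio of SRM to SMS, which is free of the scaling of a library, was 4.11 and 3.67 in shNT and 1.30, 3.28, 2.58 and 1.58 in shLAMP5 1 to 4. It was lower in all 4 shLAMP5 libraries, most of all in shLAMP5 1 and 4, where SMS lay within the shNT range.

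**Figure D2:**
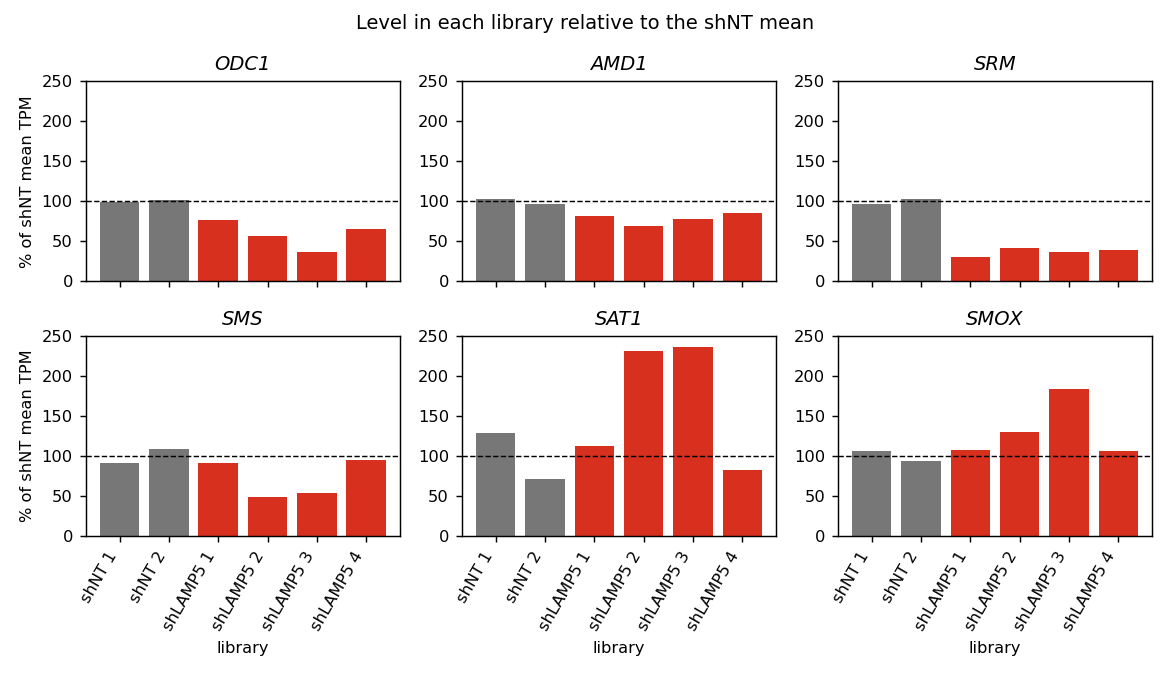
Level of 4 synthesis and 2 breakdown genes in each library as a percent of the shNT mean TPM (grey bars shNT, red bars shLAMP5, dashed line 100%). SRM bars of shLAMP5 lie between 31.0% and 41.4%, whereas SMS lies below the shNT bars and SAT1 above them in shLAMP5 2 and shLAMP5 3 alone.

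On the breakdown side, SAT1, the acetyltransferase that starts polyamine catabolism, varied more within the groups than between them. It measured 80.2 and 44.8 TPM in shNT and 70.0, 144, 148 and 51.9 TPM in shLAMP5 1 to 4. It was high in shLAMP5 2 and 3, and shLAMP5 1 and 4 lay between the shNT libraries. The log2 fold change of 0.64 had an SE of 0.47 (95% interval -0.44 to 1.72, limma adjusted p 0.707), and it was 0.23 without shNT 2, 1.05 without shNT 1 and 0.094 with library weights. The 3 libraries with the highest SAT1, shNT 1, shLAMP5 2 and shLAMP5 3, were also those on 1 side of the first principal component, which carried 45.4% of the variance of all genes. Whether what sets these libraries apart bears on SAT1 was not tested.

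SMOX, the spermine oxidase, measured 45.3 and 40.1 TPM in shNT and 45.9, 55.3, 78.7 and 45.3 TPM in shLAMP5 1 to 4. Although no shLAMP5 value lay below the higher shNT value, that value and the lowest shLAMP5 value were the same to 3 digits, and the groups overlapped once libraries were rescaled to equal totals. Its log2 fold change was 0.36 (SE 0.26, 95% interval -0.24 to 0.96, limma adjusted p 0.704), and shLAMP5 3 held the highest value. PAOX, the oxidase of acetylated polyamines, was near the detection limit, at 1.35 and 0.898 TPM in shNT and 0.795, 0.463, 0.737 and 0.551 TPM in shLAMP5 1 to 4. It was the 1 member left out by the filter on low values. All 4 shLAMP5 values lay below both shNT values, by as little as 0.898 against 0.795 TPM. With no filter on low values, 8.75% of all genes were lower in this way. SAT1 stood at 49.9 to 311 times the TPM of PAOX and at 1.12 to 2.61 times that of SMOX across the 6 libraries. The ratio of SAT1 to PAOX was higher in each shLAMP5 library, from 88.1, than in shNT, at 59.2 and 49.9. With PAOX near the detection limit and SAT1 overlapping between the groups, nothing is read from that ratio. The ratio of SAT1 to SMOX overlapped between the groups.

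The proteins that set ODC1 stability showed no separation of the groups. OAZ1, the main antizyme, measured 209 and 283 TPM in shNT and 294, 140, 244 and 236 TPM in shLAMP5 1 to 4. AZIN1, the antizyme inhibitor, measured 209 and 253 TPM in shNT and 262, 154, 235 and 282 TPM in shLAMP5 1 to 4. For this pair of genes shLAMP5 2 was the lowest library and the highest was another shLAMP5 library. Their log2 fold changes were -0.14 (SE 0.31, 95% interval -0.84 to 0.57) for OAZ1 and -0.016 (SE 0.27, 95% interval -0.63 to 0.60) for AZIN1. OAZ2, the second antizyme, stayed between 19.1 and 30.3 TPM in all libraries, with a log2 fold change of 0.038 (SE 0.23, 95% interval -0.49 to 0.56). These intervals still allow changes of the size seen in AMD1. The signs turned in other settings: AZIN1 was at 0.019 under median scaling and 0.069 under quantile normalization, and OAZ1 at 0.082 without shLAMP5 2.

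**Figure D3:**
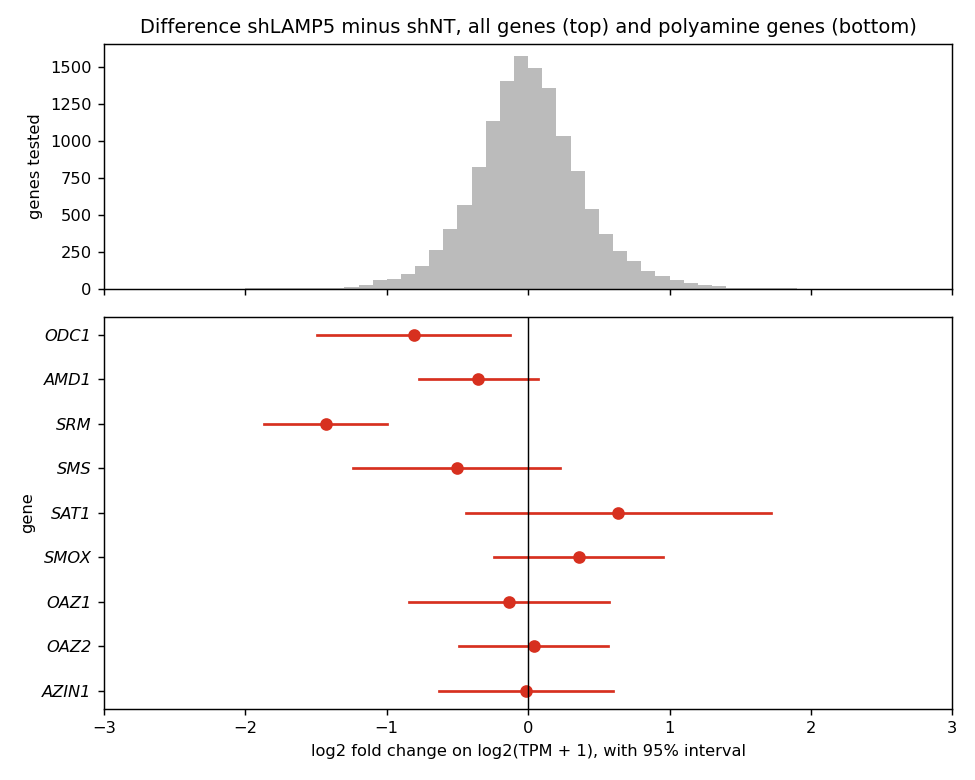
Log2 fold change of shLAMP5 against shNT, on log2(TPM + 1), of all 13072 genes tested (histogram, top) and of 9 polyamine genes with their 95% intervals (points and lines, bottom). SRM at -1.43 and ODC1 at -0.81 have intervals below 0, and the intervals of the other 7 include 0.

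ODC1 RNA was set against that of its regulators within each library. The ratio of ODC1 to AZIN1 was 0.653 and 0.553 in shNT and 0.407, 0.502, 0.213 and 0.323 in shLAMP5 1 to 4, lower in all 4. The ratio of ODC1 to OAZ1 was 0.656 and 0.494 in shNT and 0.362, 0.555, 0.205 and 0.385 in shLAMP5 1 to 4, where shLAMP5 2 lay within the shNT range. The ratio of AZIN1 to OAZ1, added after the values were seen, stayed between 0.889 and 1.19 in all 6 libraries, so the RNAs of the inhibitor and the antizyme lay at near-equal levels. That of OAZ1 to OAZ2 ran from 7.33 to 12.7, with overlap between the groups.

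The order of the members by level differed between the groups. In shNT, OAZ1 (246 ± 52.7 TPM), SRM (244 ± 11.2) and AZIN1 (231 ± 30.5, all SD, n = 2) came first, and their library values overlapped. ODC1 and AMD1 followed, each with no overlap with the next, then SMS at 63.2 TPM and SAT1 at 62.5 TPM, which overlapped, then SMOX, which overlapped with SAT1, and at a distance OAZ2 and PAOX. In shLAMP5, AZIN1 (233 ± 55.9 TPM) and OAZ1 (229 ± 64.6) came first, SAT1 next at 103 ± 49.7 TPM and then SRM at 90.4 ± 11.0 (all SD, n = 4). From AZIN1 down to SMS every neighbour in that order overlapped with the next, so the places of SAT1, SRM and ODC1 in shLAMP5 are not distinct. OAZ2 lay below SMS, and PAOX below OAZ2, in each library of both groups.

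SMS and SAT1 mirrored each other over the 6 libraries (Pearson r -0.96 on log2(TPM + 1)), as did ODC1 and SMOX (-0.94), while OAZ1 and AZIN1 varied together (0.91). These were the strongest correlations among all pairs of tested members, so they are picked extremes. They are descriptions over 6 libraries that share group and scale. The genes whose pattern was closest to that of SRM were PHF10 (r 0.998), CDC26 (0.986), GAREM2 (0.985), BCL2L12 (0.985) and NME4 (0.980). For SRM, ODC1 and SAT1 alike, the genes named are the highest among all tested genes with a symbol. High r values follow from that search over 6 libraries, and nothing is read from them. PHF10, a subunit of a SWI/SNF chromatin remodelling complex, measured 139 and 145 TPM in shNT and 98.3 to 108 TPM in shLAMP5, a much smaller difference than that of SRM. NME4, a mitochondrial nucleoside diphosphate kinase, measured 64.3 and 92.1 TPM in shNT and 17.8 to 27.2 TPM in shLAMP5. The genes closest to ODC1 were NR2C2AP, DTYMK, NCAPG2, GINS2 and TIMELESS (r 0.996 to 0.997). DTYMK makes thymidine nucleotides, GINS2 is part of the replicative helicase and NCAPG2 is a condensin subunit. For SAT1 they included CYTH4, HMBOX1, SDS and LINC01004 (r 0.986 to 0.991), these 4 highest in shLAMP5 2 and 3.

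Genes of dividing cells differed between the groups in the same direction as SRM and ODC1. All 8 of 8 dividing-cell genes on the list, among them MKI67, TOP2A and AURKA, had each shLAMP5 value under the lower shNT value, beside 13.5% of all genes tested. Their summed level was 584 and 495 TPM in shNT and 299, 275, 189 and 245 TPM in shLAMP5 1 to 4. As a percent of the shNT mean this was 55.4%, 51.0%, 35.0% and 45.4%, beside 31.0%, 41.4%, 36.4% and 39.1% for SRM and 77.0%, 56.1%, 36.3% and 65.8% for ODC1. The order of the shLAMP5 libraries was shared in that shLAMP5 3 was lowest and shLAMP5 1 highest for both ODC1 and the dividing-cell genes, whereas shLAMP5 1 was the lowest for SRM. The part of the dividing-cell genes in the result for SRM and ODC1 was not tested. In bulk RNA, fewer cells of a kind and less RNA per cell cannot be told apart.

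MYC did not separate the groups. It measured 243 and 305 TPM in shNT and 256, 143, 165 and 273 TPM in shLAMP5 1 to 4 (log2 fold change -0.43, SE 0.30, 95% interval -1.12 to 0.26, limma adjusted p 0.690). In shLAMP5 1 and 4, where MYC lay within the shNT range, SRM was at 31.0% and 39.1% of its shNT mean. ODC1 was at 77.0% and 65.8% there. In shLAMP5 2 and 3, MYC was at 52.3% and 60% of its shNT mean and SRM at 41.4% and 36.4%. ODC1 was at 56.1% and 36.3% in these libraries. The part of MYC in the results for SRM and ODC1 was not tested. Its partner MAX measured 60.1 and 54.7 TPM in shNT and 40.5 to 61.2 TPM in shLAMP5. Of the 7 tested genes of MYC and related factors, 2 had every shLAMP5 value above the shNT values (beside 8.25% of all genes). For 0 of them every value lay below (beside 13.5%), and limma called 0. The 2 higher genes were MXD1 and MXD4, which pair with MAX and oppose MYC. On the same list MXD3 and MNT overlapped between the groups, with log2 fold changes of -0.10 (SE 0.29) and 0.14 (SE 0.27). MXD1 measured 15.2 and 9.89 TPM in shNT and 17.8, 20.7, 31.3 and 17.5 TPM in shLAMP5 1 to 4 (log2 fold change 0.74, SE 0.29, limma adjusted p 0.533). MXD4 had a log2 fold change of 0.65 (SE 0.35, limma adjusted p 0.606), with 8.28 and 9.61 TPM in shNT and 10.9 to 26.6 TPM in shLAMP5.

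**Figure D4:**
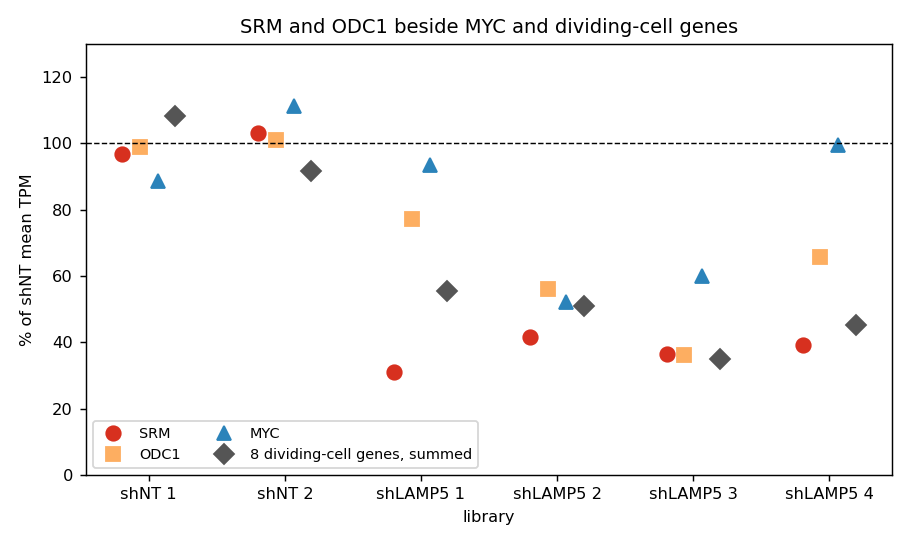
SRM, ODC1, MYC and the sum of 8 dividing-cell genes in each library, as a percent of the shNT mean TPM (points, 1 per library and item; dashed line 100%). In shLAMP5 1 to 4 MYC lies at 93.4%, 52.3%, 60% and 99.6%, and SRM at 31.0%, 41.4%, 36.4% and 39.1%. ODC1 lies at 77.0%, 56.1%, 36.3% and 65.8% in the same libraries.

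The rest of the pathway was taken from a list by role, with 53 genes of supply, transport, use and control, MYC and related factors included. Of these, 39 passed the filter and limma called 0 (with SAT2 called under library weights, and adjusted p-values from 0.440 to 0.992 without). At an unadjusted p under 0.05, 2 were lower and 2 higher, close to the shares of all genes (5.25% and 3.72%). The groups did not overlap for 11 of them, with shLAMP5 lower for 8 (20.5%, beside 13.5% of all genes) and higher for 3 (7.69%, beside 8.25%). The median log2 fold change of the 39 was -0.19. Without shNT 1 it was 17 lower (43.6%) and 4 higher (10.3%), but with 1 shNT library left the shares of all genes were also larger, at 25.6% and 18.4%.

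Spermidine also serves as the substrate for hypusine, a modified lysine made on the translation factor EIF5A, by DHPS and then DOHH. All 3 of these tested genes were lower in every shLAMP5 library, beside 13.5% of all genes tested. EIF5A measured 499 and 526 TPM in shNT and 414, 275, 361 and 405 TPM in shLAMP5 1 to 4 (log2 fold change -0.51, SE 0.21, 95% interval -0.996 to -0.027, limma adjusted p 0.541). DHPS measured 33.1 and 35.4 TPM in shNT and 17.4 to 33.0 TPM in shLAMP5, with a log2 fold change of -0.46 (SE 0.27), and the groups were parted by only 33.0 against 33.1 TPM. DOHH measured 15.5 and 13.2 TPM in shNT and 8.89 to 11.4 TPM in shLAMP5, with a log2 fold change of -0.41 (SE 0.19), and overlapped between the groups under median scaling and quantile normalization. The paralogue EIF5A2 was too low to be tested.

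Of the 11 tested genes of methyl donor supply and methionine salvage, all 11 had negative log2 fold changes, beside 50.7% of all genes tested, with a median of -0.25. The sign of 5 of them (ADI1, MAT2B, MRI1, MTR and MTRR) turned in other settings, among them library weights and leaving out shNT 2. MAT2A, which makes S-adenosylmethionine, measured 197 and 205 TPM in shNT and 171, 120, 121 and 178 TPM in shLAMP5 1 to 4 (log2 fold change -0.47, SE 0.23). AHCY, which clears S-adenosylhomocysteine, had -0.54 (SE 0.27) and ENOPH1, of the salvage pathway, -0.54 (SE 0.27), and these 3 did not overlap between the groups, with shLAMP5 lower, as for 13.5% of all genes tested. MTAP, which recycles the by-product of both synthases, measured 9.62 and 11.5 TPM in shNT and 9.30, 5.60, 7.05 and 11.6 TPM in shLAMP5 1 to 4, with overlap (log2 fold change -0.34, SE 0.28). The lowest values of MTAP were again those of shLAMP5 2 and 3, the libraries low in SMS. MTRR, the most abundant of the rest with MAT2A and AHCY set aside, had -0.22 (SE 0.23).

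For arginine and ornithine supply, 7 of 8 tested genes had log2 fold changes below 0 (median -0.29), beside 50.7% of all genes tested, and for 2 each shLAMP5 library was lower, beside 13.5% of all genes tested. These 2 were the arginine transporters SLC7A1 and SLC7A2. SLC7A1 measured 33.7 and 31.9 TPM in shNT and 14.9 to 28.9 TPM in shLAMP5 (log2 fold change -0.51, SE 0.27). SLC7A2 measured 13.1 and 13.5 TPM in shNT and 7.25 to 12.0 TPM in shLAMP5 (-0.54, SE 0.23). ALDH18A1, GATM and ARG2 turned positive in 1, 3 and 3 other settings, and OAT, the gene above 0, turned negative in 5. OAT, the ornithine aminotransferase, measured 28.5 and 51.1 TPM in shNT and 53.1, 23.9, 32.6 and 55.7 TPM in shLAMP5 1 to 4, with overlap. Arginase RNA was low, with ARG1 at or below 0.241 TPM and ARG2 between 1.05 and 2.17 TPM.

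None of the 5 tested genes of polyamine transport separated the groups. SLC3A2, the heavy chain of amino acid exchangers that has been tied to polyamine export, was the most abundant and spread from 109 TPM in shLAMP5 4 to 281 TPM in shLAMP5 2 (log2 fold change -0.045, SE 0.36, and 0.044 under quantile normalization). ATP13A3, a pump for polyamine uptake, measured 55.4 and 58.1 TPM in shNT and 68.5, 43.3, 75.9 and 74.5 TPM in shLAMP5 1 to 4, higher in 3 libraries and lower in shLAMP5 2.

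**Figure D5:**
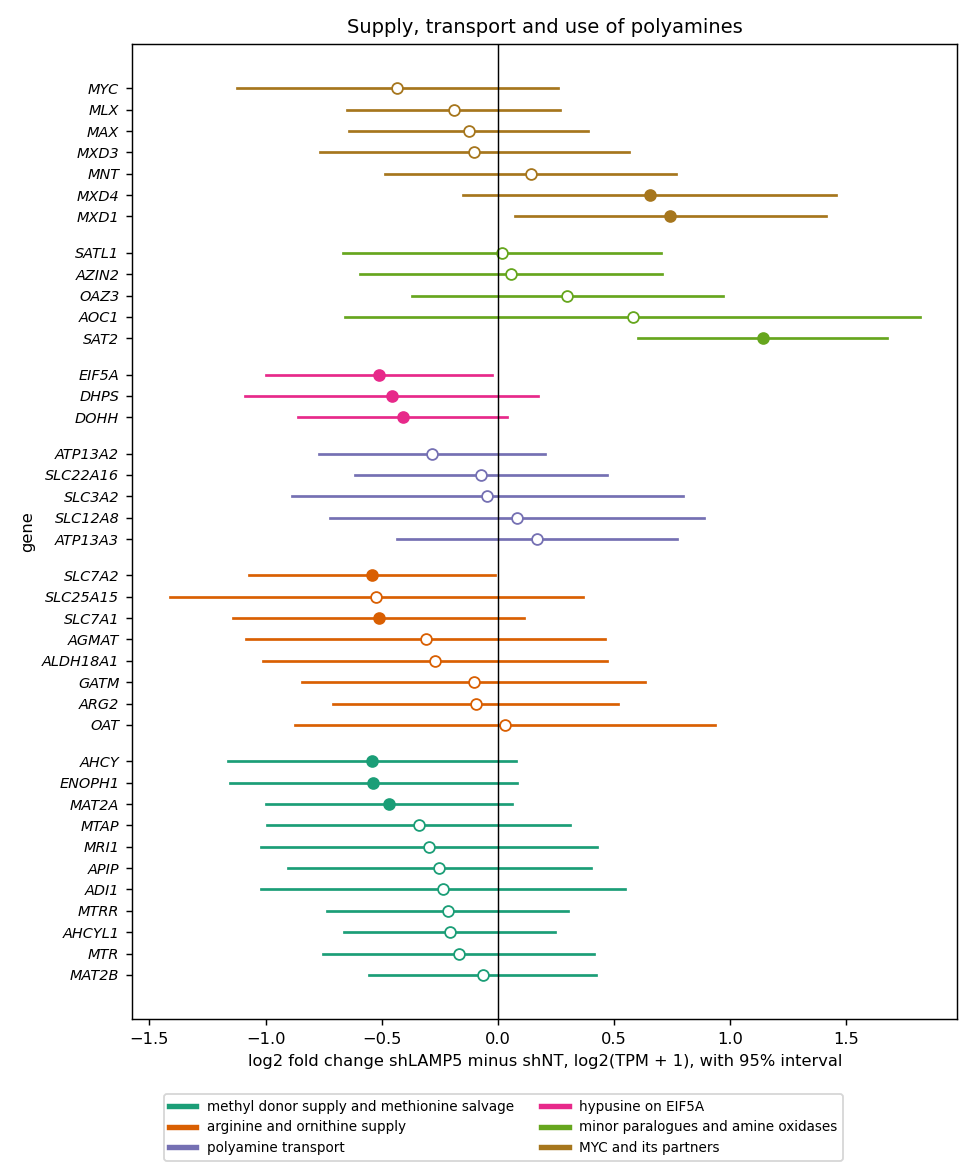
Log2 fold change with its 95% interval of the 39 tested genes of supply, transport, use and control, coloured by role; filled points mark genes whose shLAMP5 libraries all lie on 1 side of both shNT libraries. The 3 hypusine genes and 11 methyl donor and salvage genes lie below 0, and SAT2 at 1.14 lies farthest above it.

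Among minor paralogues and amine oxidases, SAT2 stood out. SAT2 resembles SAT1 in sequence and is known to acetylate thialysine in place of polyamines. It measured 3.97 and 3.59 TPM in shNT and 9.09, 7.89, 13.0 and 8.80 TPM in shLAMP5 1 to 4. Every shLAMP5 value was above the shNT values, with means of 9.70 ± 2.26 TPM (SD, n = 4) and 3.78 ± 0.267 TPM (SD, n = 2). It had a log2 fold change of 1.14 (SE 0.23, 95% interval 0.60 to 1.68), and the limma p was 34th of the 13072 genes tested, with an adjusted p of 0.440. Unlike SAT1, SAT2 was above its shNT mean in each shLAMP5 library, at 209% to 344%. AOC1, the diamine oxidase, measured 1.20 and 2.96 TPM in shNT and 5.39, 1.05, 2.66 and 6.88 TPM in shLAMP5 1 to 4, with overlap.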

How the data were processed

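The table of TPM values was deposited by the authors and was read as TPM from its fractional values and totals; kallisto and hg19 were used, per the submitters' processing notes. Its version, the transcript set, the summary to genes and filters were not given in the sources used here. Of 39771 Ensembl rows, 35558 were matched to a symbol. Groups came from titles. No pair of libraries was identical (Spearman 0.899 to 0.925 over all rows). Genes that reached 1 TPM in 2 or more libraries entered limma 3.58.1 (R 4.3.3), with its trended prior, as log2(TPM + 1) with group as the only factor, and Benjamini-Hochberg adjustment at 0.05. Fold changes on this scale understate low genes. Pseudogene rows of SRM, SMS, AMD1 and OAZ1 stayed at or below 0.414 TPM, though reads of near-identical copies may be split. Exons of OAZ1, OAZ2, AZIN1 and PAOX overlap those of other genes in GENCODE release 29, and no source states strand-aware counting, so these 4 values are uncertain.

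The members and lists were chosen with earlier results of these data known. Named genes were all members, LAMP5, list genes whose groups did not overlap or that led their role by mean TPM over the 6 libraries, MTAP, EIF5A, MYC, MAX, and the 5 genes closest to SRM, ODC1 and SAT1 by Pearson correlation (1 of these is not reported here); others were named after their values were seen. Alternatives were other pseudocounts, filters and scalings, library weights, left-out libraries and a replicate block. Tables were made with pandas 2.3.3 and numpy 2.4.6 in Python 3.11.15, and figures with matplotlib 3.10.9.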

Additional observations from a re-analysis of the deposited data

Results flagged for a closer look

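In the 4 shLAMP5 libraries, 2 of 69 genes checked had 1 library far from the other 3, where chance alone marks about 1 in 20. MXD4 stood at 26.6 TPM in shLAMP5 3, against 10.9 to 13.5 TPM in the other shLAMP5 libraries. The myeloid receptor gene CSF1R stood at 79.7 TPM in shLAMP5 3, against 21.1 to 24.9 TPM in the others.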

How the results depend on the processing

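The 16 other settings left the sign of SRM, ODC1, AMD1, SMS, SAT1 and SMOX as it was, and turned that of OAZ1, OAZ2 and AZIN1 in 3, 4 and 6 of them. SRM, ODC1 and AMD1 were lower in all shLAMP5 libraries in each of the 14 settings where this was counted. Other pseudocounts, filters and left-out libraries could not undo such a separation, so only the rescalings could have changed it. Under equal totals, median scaling and quantile normalization, 13.7%, 13.7% and 14.7% of all genes tested were lower in all shLAMP5 libraries. The number of all genes called was 14 with no filter on low values, 210 with library weights and 16 with the replicate block, and 0 without any 1 library. With library weights 1 polyamine gene (SRM, adjusted p 0.0215) and 1 supply, transport and use gene (SAT2, adjusted p 0.0303) were called. Without shNT 1 and shLAMP5 2 together, 7 polyamine genes and 24 of the supply, transport and use genes had groups that did not overlap (77.8% and 61.5% of those tested), but so did 63.5% of all genes. Leaving out 1 library gave 4 to 6 and 11 to 21 of these, the highest without shNT 1, where 44.0% of all genes did not overlap, beside 21.8% with all 6 libraries. Without shLAMP5 2, 44.4% of the polyamine genes and 35.9% of the supply, transport and use genes did not overlap, beside 39.6% of all genes. The titles' numbers were shared by 2 libraries of each group, too few to show pairing: deviations correlated at -0.52 for number 1 and -0.47 for number 2. With the replicate block 0 polyamine genes were called, with SRM at -1.47, on 1 residual degree of freedom. The read depth is unknown, and genes near 1 TPM, such as PAOX, are the least certain.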
